A study of Rattus norvegicus with 14 samples.

Results

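The genes described here are 37 genes of T cells, natural killer (NK) cells, B cells and plasma cells, taken from a fixed list of names. A gene was kept where the array carried a probe set annotated to it alone, which left 32 of the 37 genes, out of 14217 genes with such a probe set. Each gene was read from 1 probe set, the one with the highest mean over the 14 arrays. Cd27, Ccr7, Cd79a, Cd38 and Irf4 had no probe set of their own and have no value here. The 32 genes fall into 12 genes of the T cell receptor and its signaling, 6 genes of cytokine and homing receptors, 6 genes of cytotoxic granules and NK receptors, 5 B cell genes and 3 plasma cell genes.

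Malignant mesothelioma is a tumor of the mesothelium, the cell layer that lines the body cavities, and the study compared tumors raised in rats with long fibers. Male Wistar rats, of an age that the labels do not give, received a single intraperitoneal injection of a fiber suspended in artificial lung medium, and late-stage peritoneal tumors were collected. The fibers were the multiwalled carbon nanotubes MWCNT B (2 tumors), MWCNT C (3 tumors) and MWCNT D (3 tumors), and amosite asbestos (3 tumors). By histology 5 tumors were sarcomatoid, 3 were biphasic and 3 were epithelioid, and 3 samples of tumor-free peritoneal tissue served as control, from rats called sham-treated in the labels and untreated in the methods. RNA came from pieces of whole tissue, so that fewer cells of a type and less RNA per cell cannot be told apart.

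T cells recognize antigen through a receptor that has no signaling part of its own, and the CD3 chains and Cd247 carry its signal to the kinase Zap70 and the adaptor Lat. B cells signal through Cd79b and its partner in the same manner, and when they mature into plasma cells the repressor Prdm1 shuts down their B cell program while the joining chain Jchain links secreted antibodies. In lymph nodes the chemokines Ccl19 and Ccl21 draw T cells, and Cxcl13 draws B cells that bear its receptor Cxcr5, into separate zones.

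All levels are log2(signal + 1) of the deposited array signals, on which a difference of 1 is a 2-fold change, and levels of different probe sets are not set against each other. A gene is said to have risen or fallen where its adjusted p in limma, adjusted over all 31042 probe sets, was below 0.05 and its change was above 2-fold. The depth of an array is not defined as for counts, and the number of arrays limits the precision.

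The tissues had different makeup. Skeletal muscle genes (15 measured) averaged 14.2 to 14.3 in control tissue against 5.16 to 5.73 in tumors. Mesothelial genes (8 measured) averaged 7.18 to 12.4 in tumors against 3.31 to 5.72 in control tissue. The pan-leukocyte genes (13 measured) lay at 8.40 to 12.4 in the tumors and at 6.47 to 7.74 in the controls, and 12 of the 13 rose in tumors. The macrophage genes (16 measured) lay at 8.96 to 11.5 in the tumors and at 7.10 to 8.31 in the controls. As a sign of RNA quality, the log2 signal of the array's 3′ probe set minus that of its 5′ probe set ranged for actin from -1.24 to -0.65 among controls and from 0.30 to 0.60 among tumors. For Gapdh the control range was 0.10 to 0.16 and the tumor range -0.03 to 0.18, and for hexokinase the control range was 1.70 to 3.91 and the tumor range 0.77 to 1.24. Among tumors, MWCNT D replicate 2 was the lowest for actin (0.30) and the highest for hexokinase (1.24), and lay inside the range for Gapdh (0.04). The groups thus did not overlap for actin or hexokinase, in opposite directions, and overlapped for Gapdh. What part these differences have in the lymphocyte genes was not tested.

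A single sarcomatoid tumor, MWCNT D replicate 2, stood apart in almost every lymphocyte gene. It was the highest of the 11 tumors for 28 of the 32 genes, for 23 of them by more than 1 on the log2 scale and for 16 of them by more than 3. Over all 14217 genes, this tumor was the highest for 19.0%, and it was the highest by more than 3 for 0.823%, or 117 genes. The lymphoid signal of this tumor was known when the genes were chosen, so these counts describe it and are no test. Its level exceeded the median of the other 10 tumors by a median of 4.31 over the 32 genes. That median excess was 4.45 for the T cell receptor genes, 3.83 for the cytokine and homing receptor genes, 3.59 for the cytotoxic and NK genes, 7.11 for the B cell genes and 5.88 for the plasma cell genes.

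Genes of other tissues also set this tumor apart. Its pancreatic acinar genes (13 measured) had a mean level of 13.8, against 5.25 to 5.98 in 9 other tumors. Amosite replicate 1, an epithelioid tumor, had a mean of 14.6 for the same genes and was the lowest tumor for 10 of the 32 lymphocyte genes. The mesothelial genes were at their lowest in MWCNT D replicate 2, at 7.18, against 9.32 to 12.4 in the other tumors. For the 32 genes between tumors and control, the plot of differences therefore gives each estimate with and without this tumor, and what the other tissues contribute was not tested. MWCNT D replicate 2 was singled out by its level in these same genes. A p-value without it therefore describes the remaining tumors and is no independent test.

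**Figure D1:**
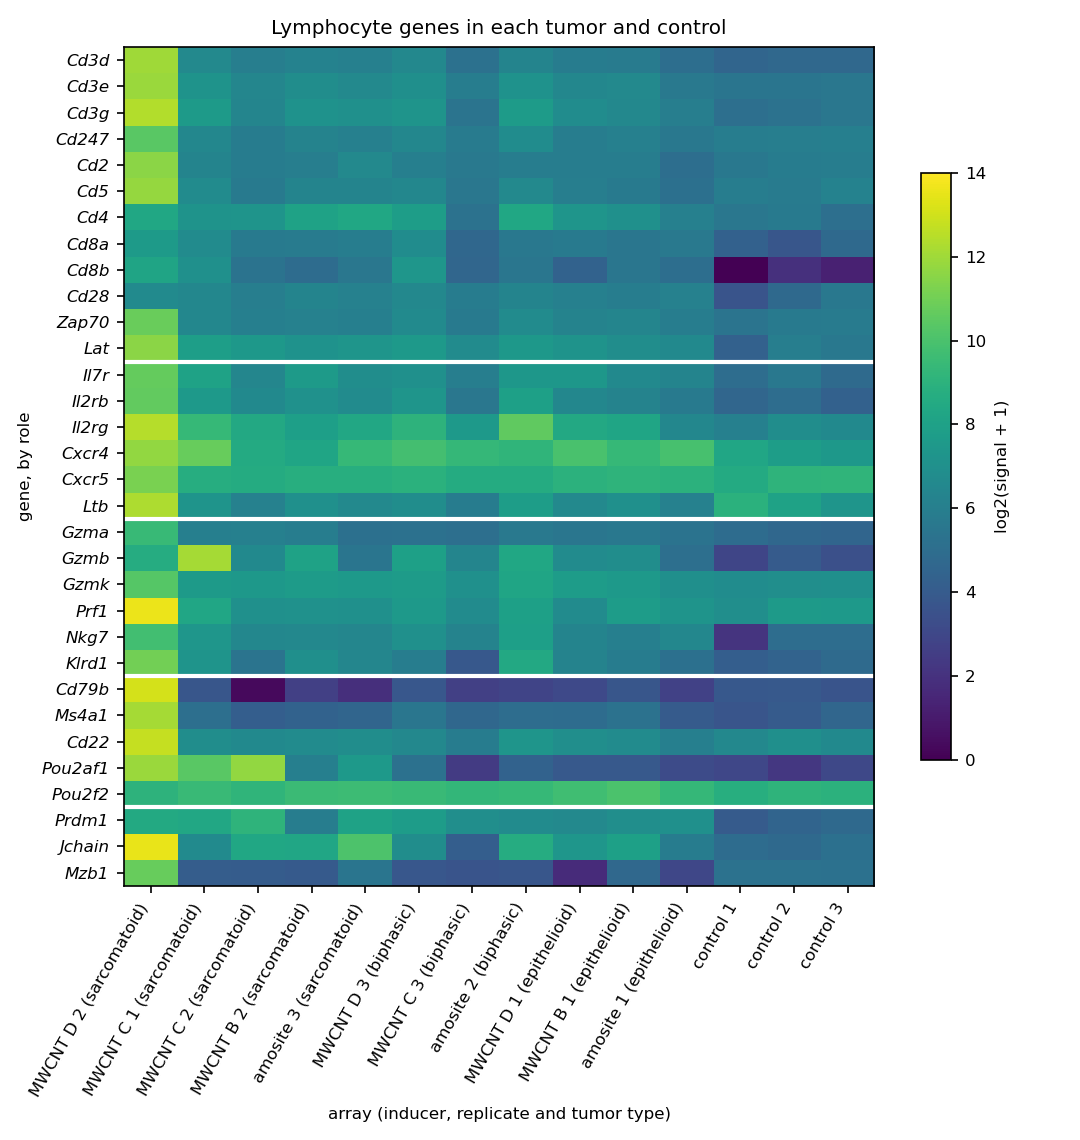
Level of each of the 32 lymphocyte genes, as log2(signal + 1) by color from 0 to 14, in the 11 tumors ordered by type and in the 3 controls. White lines separate the 5 roles, and colors are compared along a row. MWCNT D replicate 2 in the first column is the highest tumor for 28 genes, while Gzmb peaks in MWCNT C replicate 1 and Pou2af1 is high in several sarcomatoid tumors.

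The CD3 chains showed both a small difference shared by the tumors and the much higher level of the tumor that stood apart. Cd3d, the delta chain, had a level of 12.01 in MWCNT D replicate 2, of 5.07 to 6.59 (median 6.04) in the other 10 tumors, and of 4.55, 4.70 and 4.74 in the controls. All 11 tumors therefore lay above all 3 controls. With all tumors the difference was 1.86 ± 1.03 (SE, n = 11 and 3) at an adjusted p of 0.143 in limma, and without MWCNT D replicate 2 it was 1.31 at an adjusted p of 0.0017. Cd3e, the epsilon chain, was at 11.91 in that tumor, at 5.64 to 7.18 in the other tumors and at 5.43 to 5.53 in the controls, again without overlap. Its difference was 1.59 (adjusted p = 0.157 in limma) with all tumors and 1.11 (adjusted p = 0.00472) without that tumor, and another probe set of Cd3e rose by 4.86 (adjusted p = 0.00436) from a control mean of 0.85. Cd3g, the gamma chain, was at 12.40 in that tumor, at 5.39 to 7.70 in the others and at 5.14 to 5.58 in the controls, and its difference of 1.96 (adjusted p = 0.113 in limma) became 1.45 (adjusted p = 0.0082) without it. For Cd3g, 9 of the other 10 tumors lay above every control. With the arrays centred on their median and MWCNT D replicate 2 left out, none of the CD3 chains was called. With signals below 5 raised to 5 and that tumor left out, Cd3d was not called, while Cd3e and Cd3g were.

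These 3 genes lie next to each other on rat chromosome 8 with no other protein-coding gene between them, and Cd3g and Cd3d are transcribed away from each other from start sites 1601 bases apart. Because they moved together, the 250 bases before each start site are shown, 5′ to 3′ on the gene's own strand, from the RefSeq promoter table of build GRCr8. The windows are chr8:54183919-54184168 (minus strand) for Cd3g, chr8:54185269-54185518 (plus strand) for Cd3d and chr8:54211771-54212020 (minus strand) for Cd3e. Capitals mark E-boxes of the form CAGNTG or its reverse complement CANCTG, the class of site that E proteins, transcription factors of lymphocyte development, are known to bind.
Cd3g: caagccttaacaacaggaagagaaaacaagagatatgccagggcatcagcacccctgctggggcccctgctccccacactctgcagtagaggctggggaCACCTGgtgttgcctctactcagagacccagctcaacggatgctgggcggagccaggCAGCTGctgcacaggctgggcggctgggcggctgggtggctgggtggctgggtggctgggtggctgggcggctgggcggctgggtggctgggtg
Cd3d: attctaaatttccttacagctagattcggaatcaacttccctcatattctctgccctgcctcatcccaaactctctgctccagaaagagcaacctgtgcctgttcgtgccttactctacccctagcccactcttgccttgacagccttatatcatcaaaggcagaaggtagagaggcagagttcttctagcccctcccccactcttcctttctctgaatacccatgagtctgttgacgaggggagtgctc
Cd3e: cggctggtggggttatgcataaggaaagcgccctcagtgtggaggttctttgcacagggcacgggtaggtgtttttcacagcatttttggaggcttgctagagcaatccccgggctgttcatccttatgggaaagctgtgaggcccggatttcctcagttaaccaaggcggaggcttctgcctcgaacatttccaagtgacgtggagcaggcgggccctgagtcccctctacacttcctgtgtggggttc

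The Cd3g window held 2 such E-boxes and those of Cd3d and Cd3e held 0. Of the 37 lymphocyte genes 27 had an entry in the promoter table, and 16 of these 27 (59.3%) held an E-box of this form in the 250 bases before the start, against 43.3% of all 33469 promoters. The octamer ATGCAAAT, or ATTTGCAT on the other strand, which Pou2f2 and its coactivator Pou2af1 are known to read, was in 0 of the 27 windows of 300 bases (250 before and 50 after the start) and in 1.78% of all promoters. The octamer search was planned, and the E-box search was not. These matches describe the letters only, with no test. Further pairs of neighbors among the lymphocyte genes, with no other protein-coding gene between them, were Gzma and Gzmk on chromosome 2 and Cd8a and Cd8b on chromosome 4.

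For Cd247, Cd2 and Cd5 the tumor that stood apart was again far above the rest. The other tumors were close to the controls on the probe sets used. Cd247, the zeta chain, was at 10.42 in MWCNT D replicate 2, at 5.58 to 6.80 in the other tumors and at 5.91 to 6.02 in the controls. Cd2, an adhesion receptor of T and NK cells, was at 11.57 there, at 5.05 to 6.61 in the other tumors and at 5.58 to 5.95 in the controls. Cd5, which restrains receptor signaling, was at 11.78 there, at 5.16 to 6.75 in the others and at 5.84 to 6.21 in the controls. On these probe sets the remaining tumors and the controls overlapped for all 3 genes. Without MWCNT D replicate 2 the differences were 0.17 for Cd247, 0.14 for Cd2 and 0.06 for Cd5, with adjusted p from 0.517 to 0.87 in limma. Another probe set of Cd247 differed by 1.21 over all tumors (adjusted p = 0.0564 in limma). On it every tumor, from 5.57 up, lay above every control, at 4.51 to 5.38.

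The kinase Zap70 and the adaptor Lat act just below the receptor. Zap70 was at 10.80 in that tumor, at 5.76 to 6.76 in the others and at 5.41 to 5.84 in the controls, with a difference of 0.99 (adjusted p = 0.298 in limma) over all tumors and of 0.57 (adjusted p = 0.0298), below 2-fold, without that tumor. Another probe set of Zap70 rose by 1.70 on the log2 scale (adjusted p = 0.00304). Lat was at 11.55 in that tumor, at 6.67 to 7.84 in the others and at 4.37, 5.63 and 5.99 in the controls, so every tumor lay above every control. Lat rose by 2.29 ± 0.77 (SE, adjusted p = 0.0215 in limma), and by 1.90 (adjusted p = 0.000171) without that tumor. After each array was centred on its median, the difference of Lat was 1.84 (adjusted p = 0.0606), and without control replicate 1 it was 1.81 (adjusted p = 0.125).

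Cd4 and Cd28 rose in the tumors with or without the tumor that stood apart. Cd4, the coreceptor of helper T cells that rat macrophages also carry, was at 5.28 to 8.35 (median 7.30) in the 11 tumors and at 5.13, 5.55 and 5.78 in the controls. It was highest in amosite replicates 3 and 2 (8.35 and 8.34) and in MWCNT D replicate 2 (8.32), and MWCNT C replicate 3, at 5.28, lay within the control range. Cd4 rose by 1.87 ± 0.55 (SE, adjusted p = 0.00975 in limma), and by 1.78 (adjusted p = 0.0127) without MWCNT D replicate 2, while without control replicate 3 its difference was 1.70 (adjusted p = 0.0514). Cd28, which gives T cells their costimulatory signal, was at 5.88 to 6.69 in the tumors and at 3.64, 4.78 and 5.60 in the controls, without overlap, and rose by 1.55 ± 0.29 (adjusted p = 0.000476 in limma). With signals below 5 raised to 5 the rise of Cd28 was 1.02 (adjusted p = 0.000344 in limma). With MWCNT D replicate 2 left out as well it was 0.98, below 2-fold and not called. Cd4 was not called with the arrays centred on their median and that tumor left out.

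Both chains of the cytotoxic T cell coreceptor rose too, from very low control signals. Cd8a was at 4.66 to 7.62 (median 5.76) in the tumors and at 3.76, 4.37 and 4.80 in the controls, with a rise of 1.67 ± 0.46 (SE, adjusted p = 0.00697 in limma). Cd8b was at 4.40 to 8.16 (median 5.48) in the tumors and at 0.04, 1.28 and 1.91 in the controls, with no overlap and a rise of 4.69 ± 0.70 (SE, adjusted p = 6.99e-05 in limma). MWCNT D replicate 2 was the highest for both, followed by MWCNT D replicate 3 (6.83 for Cd8a and 7.37 for Cd8b) and MWCNT C replicate 1 (6.73 and 7.01). With signals below 5 raised to 5, the difference was 0.86 for Cd8b (adjusted p = 0.308) and 1.02 for Cd8a (adjusted p = 0.0688), so both calls rested on signals near the bottom of the scale. Without control replicate 2 the difference of Cd8a was 1.40 (adjusted p = 0.0503). Of the 2 other probe sets of Cd8a, 1 rose by 5.23 (adjusted p = 0.0028) and the other differed by 3.74 (adjusted p = 0.0578).

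**Figure D2:**
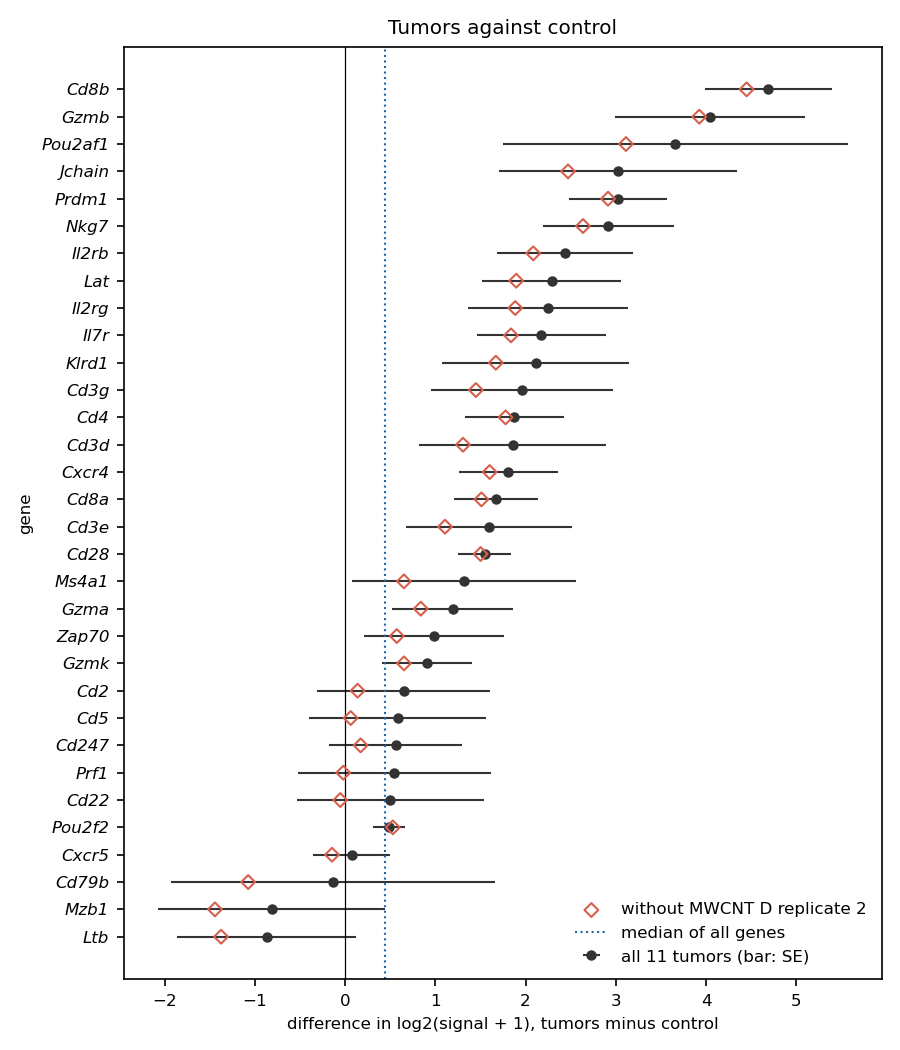
Difference in log2(signal + 1) between tumors and the 3 controls for each of the 32 genes. Filled circles with bars give the estimate and its standard error over all 11 tumors, open diamonds the estimate without MWCNT D replicate 2, and the dotted line the median of all genes (0.44). Leaving out that tumor moves Cd79b from -0.13 to -1.07 and Ms4a1 from 1.32 to 0.65, while Cd28 and Prdm1 move by little.

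All 3 chains of the cytokine receptors that keep lymphocytes alive were called higher, Il2rg by a narrow margin. Il7r, the receptor of interleukin 7, was at 6.01 to 10.69 (median 7.02) in the tumors and at 4.83 to 5.60 in the controls and rose by 2.18 ± 0.71 (SE, adjusted p = 0.0182 in limma). Il2rb, shared by the interleukin 2 and interleukin 15 receptors, was at 5.57 to 10.61 (median 6.75) in the tumors and at 4.34 to 5.01 in the controls and rose by 2.44 ± 0.76 (adjusted p = 0.0139). Il2rg, the common chain, was at 6.48 to 12.46 (median 8.43) in the tumors and at 6.11 to 6.88 in the controls and rose by 2.25 ± 0.89 (adjusted p = 0.0434). For Il7r and Il2rb all tumors lay above all controls, while for Il2rg amosite replicate 1 (6.48) lay within the control range. Without MWCNT D replicate 2 the rises were 1.84, 2.09 and 1.89, and after median centring of the arrays the adjusted p was 0.057 for Il7r, 0.0421 for Il2rb and 0.105 for Il2rg. Without control replicate 3 the adjusted p was 0.0729 for Il7r, 0.0590 for Il2rb and 0.0979 for Il2rg, without control replicate 1 it was 0.0649 for Il7r and 0.143 for Il2rg, and Il2rg also lost its call without control replicate 2 and without each of MWCNT D replicates 1 and 3, MWCNT C replicates 1 and 2 and amosite replicates 2 and 3 (adjusted p from 0.0506 to 0.0827). Over all tumors the call of Il2rg was also lost with signals below 5 raised to 5 (adjusted p = 0.063), with log2(signal + 16) (0.0507) and in tests without moderation (0.0644), and it held in 11 of 27 alternatives.

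Of the homing receptors only Cxcr4 rose. Cxcr4, which guides leukocytes toward Cxcl12, was at 8.25 to 11.74 (median 9.38) in the tumors and at 7.48, 7.82 and 8.26 in the controls, and it rose by 1.81 ± 0.55 (SE, adjusted p = 0.0117 in limma). The highest tumors were MWCNT D replicate 2 (11.74) and MWCNT C replicate 1 (10.76), and the lowest, MWCNT B replicate 2 (8.25), lay within the control range. Without control replicate 3 the difference of Cxcr4 was 1.62 (adjusted p = 0.0601). Cxcr5 was at 11.19 in MWCNT D replicate 2 and at 8.59 to 9.11 in the other tumors, whose levels all lay within the control range of 8.58 to 9.16.

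Ltb, a membrane cytokine that lymphocytes use to organize lymphoid tissue, ran the other way outside that tumor. It was at 12.30 in MWCNT D replicate 2, at 5.88 to 7.78 (median 6.74) in the other tumors and at 7.31, 8.05 and 8.95 in the controls. Of the other 10 tumors 9 lay below every control. With all tumors the difference was -0.87 ± 0.99 (SE, adjusted p = 0.477 in limma), and without that tumor Ltb fell by 1.37 (adjusted p = 0.00831).

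Genes of the cytotoxic granule did not move as a block. Gzmb, a granule protease, was at 12.09 in MWCNT C replicate 1, which held the highest level of any tumor by 3.42, at 8.67 in MWCNT D replicate 2 and at 5.13 to 8.35 in the other 9 tumors, against 2.95, 3.40 and 4.01 in the controls. It rose by 4.04 ± 1.06 (SE, adjusted p = 0.00497 in limma) with no overlap, and with signals below 5 raised to 5 the difference was 2.49 (adjusted p = 0.0813). The other probe set of Gzmb rose by 5.12 (adjusted p = 0.00151). Nkg7, a granule membrane protein, was at 6.02 to 9.77 in the tumors and at 2.10 to 5.02 in the controls and rose by 2.92 ± 0.73 (adjusted p = 0.00358 in limma).

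Prf1, the pore-forming protein that works with the granzymes, showed no such rise. It was at 13.56 in MWCNT D replicate 2, at 6.76 to 8.30 in the other tumors and at 6.91 to 7.64 in the controls, and without that tumor the difference was -0.02 (adjusted p = 0.961 in limma). Gzma was at 9.44 there, at 5.12 to 6.10 in the other tumors and at 4.58 to 4.94 in the controls, and Gzmk at 10.31 there, at 6.96 to 8.21 in the others and at 6.83 to 6.96 in the controls. Without that tumor the differences were 0.84 for Gzma (adjusted p = 0.00492 in limma) and 0.65 for Gzmk (adjusted p = 0.0179), both below 2-fold. For both genes all 10 other tumors lay above every control, though for Gzmk the lowest of them equals the highest control after rounding. Klrd1, a receptor of NK cells and some cytotoxic T cells, was at 11.01 in that tumor, at 3.88 to 8.44 in the others and at 4.18 to 4.82 in the controls, with amosite replicate 2 next at 8.44, and its difference was 2.11 ± 1.04 (adjusted p = 0.0985 in limma) with that tumor and 1.67 (adjusted p = 0.0525) without it. Without MWCNT C replicate 3, the lowest tumor, Klrd1 rose by 2.39 (adjusted p = 0.0493).

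B cell genes marked 1 tumor almost alone. Cd79b, a signaling chain of the B cell receptor, was at 13.12 in MWCNT D replicate 2, at 0.35 to 3.79 in the other 10 tumors and at 3.66, 3.88 and 3.91 in the controls, so that none of the other tumors reached above the controls and 7 lay below them. Ms4a1, the B cell surface protein CD20, was at 12.09 there, at 4.04 to 5.50 in the other tumors and at 3.68 to 4.64 in the controls. Cd22, which restrains B cell receptor signaling, was at 12.78 there, at 5.90 to 7.32 in the others and at 6.56 to 6.95 in the controls. None of the 3 genes was called between tumors and control, with or without that tumor, the adjusted p without it being 0.123 for Cd79b, 0.0802 for Ms4a1 and 0.869 for Cd22 in limma.

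On the probe sets used, the B cell transcription factors behaved differently from the surface genes. Pou2f2 was at 9.06 on its probe set in MWCNT D replicate 2, the lowest of the 11 tumors, which otherwise lay between 9.16 and 10.05, against 8.79 to 9.13 in the controls. Its difference was 0.49 ± 0.18 (SE, adjusted p = 0.0295 in limma), below 2-fold, and 0.04 (adjusted p = 0.854) with arrays centred on their median, while its 2 other probe sets rose by 1.53 (adjusted p = 0.00784) and by 4.83 (adjusted p = 6.48e-05), the latter from a control mean of 0.18. Pou2af1, the coactivator of Pou2f2 that is found mostly in B and plasma cells, was high in more than 1 tumor. It was at 11.92 in MWCNT D replicate 2, 11.75 in MWCNT C replicate 2, 10.42 in MWCNT C replicate 1, 7.58 in amosite replicate 3 and 6.06 in MWCNT B replicate 2, which are the 5 sarcomatoid tumors. The 3 biphasic tumors were at 2.41, 4.41 and 5.21, the 3 epithelioid tumors at 3.19, 3.90 and 3.93, and the controls at 2.26, 3.01 and 3.05. Its difference from control was 3.66 ± 1.91 (adjusted p = 0.118 in limma) over all tumors and 3.11 (adjusted p = 0.134) without MWCNT D replicate 2.

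Of the 3 plasma cell genes, Prdm1 and Jchain were also high in other tumors, while Mzb1 was high in that tumor alone. Prdm1, which drives plasma cell formation and also acts in T cells and macrophages, was at 5.92 to 9.08 (median 7.02) in the tumors and at 4.01, 4.50 and 4.76 in the controls, without overlap, and rose by 3.02 ± 0.55 (SE, adjusted p = 0.000335 in limma). MWCNT C replicate 2 was the highest at 9.08 and MWCNT D replicate 2 the next at 8.53. Jchain was at 13.51 in MWCNT D replicate 2, at 10.09 in amosite replicate 3, at 4.20 to 8.68 in the other 9 tumors and at 4.77 to 5.18 in the controls. Its difference was 3.02 ± 1.32 (adjusted p = 0.0654 in limma) with all tumors and 2.47 (adjusted p = 0.0302) without MWCNT D replicate 2, and without MWCNT C replicate 3 it was 3.40 (adjusted p = 0.0259). The other probe set of Jchain differed by 0.83 (adjusted p = 0.39).

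Mzb1, an endoplasmic reticulum protein of B and plasma cells that helps assemble antibodies, was lower in most tumors. It was at 10.73 in MWCNT D replicate 2, at 1.70 to 5.42 (median 3.89) in the other tumors and at 5.25 to 5.29 in the controls, with 9 of the other 10 tumors below every control. Without that tumor Mzb1 fell by 1.44 (adjusted p = 0.0367 in limma), but most of these levels lie below 5, and with signals below 5 raised to 5 the difference without that tumor was -0.22 (adjusted p = 0.0306), below 2-fold and no longer called.

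Over all 11 tumors, 12 of the 32 genes rose, 0 fell and 20 were not called, where 24.5% of all probe sets were called higher and 10.4% lower. The genes that rose were 5 of 12 T cell receptor genes (Cd4, Cd8a, Cd8b, Cd28 and Lat), 4 of 6 cytokine and homing receptor genes (Il7r, Il2rb, Il2rg and Cxcr4), 2 of 6 cytotoxic genes (Gzmb and Nkg7), 0 of 5 B cell genes and 1 of 3 plasma cell genes (Prdm1). The median difference was 1.63 over the 32 genes and 0.44 over all genes. Without MWCNT D replicate 2, 16 genes rose and 2 fell, where 25.1% of all probe sets were called higher and 10.6% lower. The additions were Cd3d, Cd3e, Cd3g and Jchain among the genes that rose, and Mzb1 and Ltb were the 2 that fell. With signals below 5 raised to 5 as well, Cd3d and Mzb1 were not called. With the arrays centred on their median instead, Cd3d, Cd3e, Cd3g and Jchain were not called.

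The level of all probe sets differed between tumors and control before any gene was considered. The median difference over all probe sets was 0.34 as deposited, -0.10 after median centring of the arrays and -0.02 after quantile normalization, and the share of called probe sets that were higher was 70.2%, 46.6% and 52.4% in the same order. Lat, Il7r and Il2rg were not called after centring or after quantile normalization. Without control replicate 3, 7 of the 32 genes were called.

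**Figure D3:**
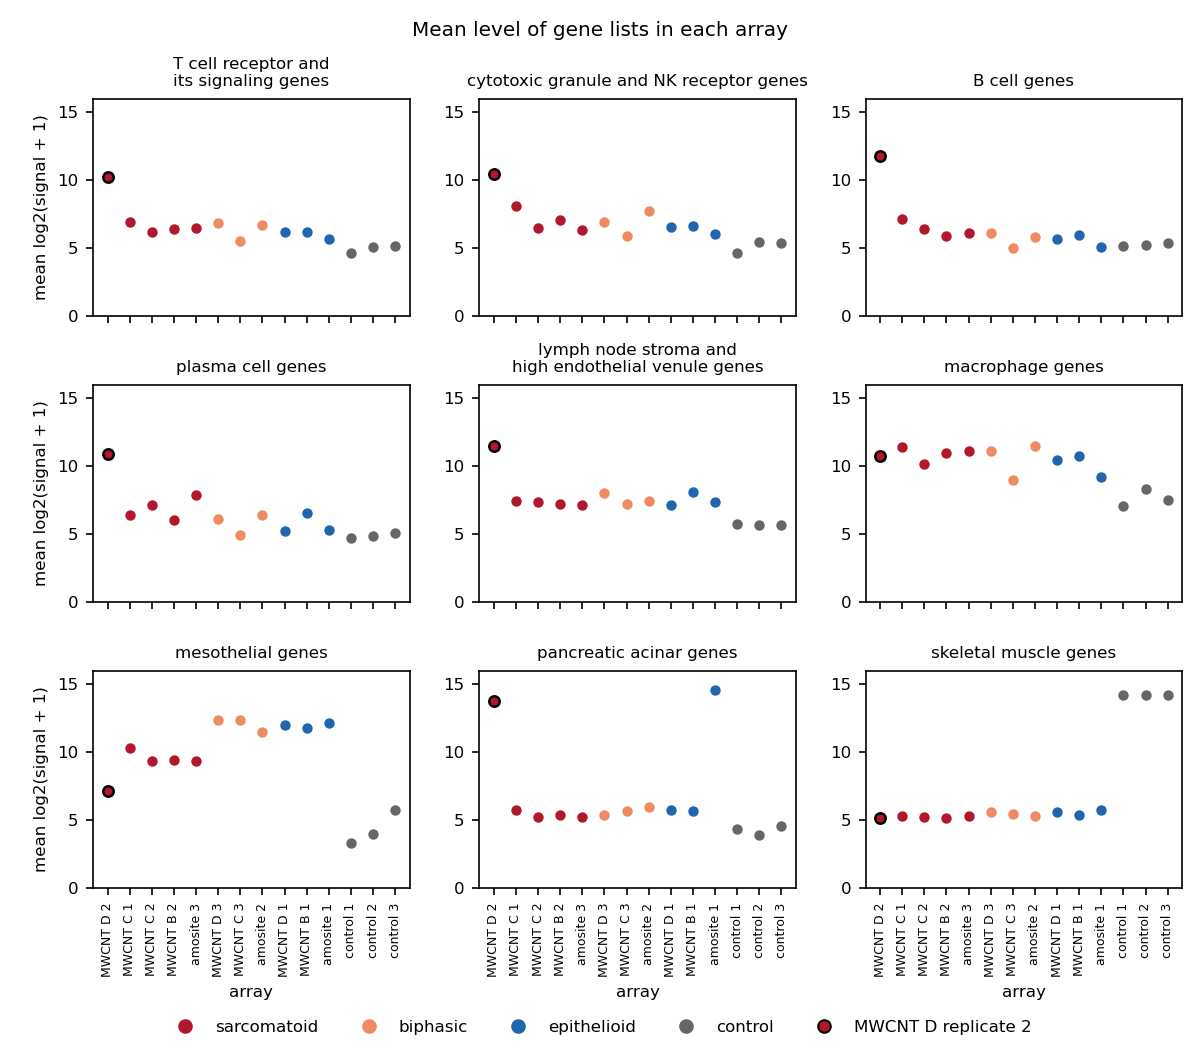
Mean log2(signal + 1) of 9 gene lists in each of the 11 tumors and 3 controls, with points colored by tumor type and MWCNT D replicate 2 outlined in black. This tumor is the highest for the 4 lymphocyte lists and for the lymph node list (11.5), has 1 of the 2 high pancreatic values and the lowest mesothelial value of the tumors (7.18), and the muscle list is high in the controls only.

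The ligands of these receptors were read from their own list of 11 measured genes, of which 6 rose and 1 fell between tumors and control. Cxcl13 was at 9.52 to 13.83 in the tumors, all above the controls at 4.86 to 5.54, and rose by 6.37 ± 0.88 (SE, adjusted p = 3.31e-05 in limma), although its receptor Cxcr5 was within the control range in 10 tumors. Il7 was at 5.93 to 9.98 (median 7.71) in the tumors and at 4.89 to 6.04 in the controls and rose by 2.25 ± 0.55 (adjusted p = 0.00305). Il15, a survival factor of NK cells, was at 6.37 to 8.60 in the tumors and at 10.76 to 10.99 in the controls and fell by 3.32 ± 0.45 (adjusted p = 2.98e-05). The control tissue also held the high skeletal muscle signal given above. What part tissue makeup has in the differences of the ligands was not tested. Cd86, a ligand of Cd28, rose by 2.61 (adjusted p = 0.000213).

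The T cell chemokines were high in 1 tumor. Ccl19 was at 17.47 in MWCNT D replicate 2, at 5.83 to 6.61 in the other tumors and at 5.05 to 5.27 in the controls. The distance of 10.86 to the next tumor was the greatest of any of the 14217 genes in this tumor. Ccl21 was at 13.44 there, at 4.12 to 9.52 in the other tumors and at 8.71 to 9.77 in the controls, and Cxcl12, the ligand of Cxcr4, was at 13.20 there, at 10.18 to 12.85 in the others and at 10.24 to 10.65 in the controls. None of the 3 was called between tumors and control, with adjusted p of 0.362, 0.157 and 0.0744 in limma.

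Of the other B cell genes, 12 of 13 were at their highest in the same tumor, 7 of them by more than 3, and of the lymph node genes 6 of 10 were, 4 of them by more than 3. Of the other plasma cell and antibody genes 3 of 7 were, 0 of them by more than 3, and their mean level was 9.26 there and 9.15 in the next tumor. The genes in the rest of this paragraph are named after their values were seen, for their distance from the other tumors. Glycam1, a mucin of the high endothelial venules through which lymphocytes enter lymph nodes, was at 15.74 in MWCNT D replicate 2, at 5.97 to 6.92 in the other tumors and at 6.42 to 6.49 in the controls. Cr2, a complement receptor of B cells and follicular dendritic cells, was at 14.52 there and at most 5.67 in the other tumors. Among B cell genes, Fcer2 (13.82 there and at most 6.22 elsewhere among tumors), Bank1 (13.88 and 6.30), Fcrla (15.40 and 8.72) and Vpreb3 (11.81 and 4.24) showed the same order, as did the antibody light chain gene Iglc1 (11.34 and 7.71, the latter in amosite replicate 3). Madcam1, an adhesion molecule of mucosal venules, was at 7.45 there and at 6.04 to 7.47 over all tumors. Genes outside the lists also stood far above the next tumor, such as the islet hormone gene Iapp (by 7.88) and the acetylcholine receptor gene Chrna3 (by 7.51).

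Other lymphocyte genes outside the 32 were read from 3 further lists, where 24.5% of all probe sets were called higher. Of 33 other T and NK cell genes measured, 15 rose and 1 fell, among them the receptor adaptors Lcp2 (3.65, adjusted p = 0.000222 in limma) and Fyb1 (3.43, adjusted p = 0.0021), while Prkcq, a kinase of T cells that skeletal muscle also expresses, fell by 4.12 (adjusted p = 0.000632). Of 13 other B cell genes measured 4 rose, led by the adaptor Blnk (4.93, adjusted p = 3.37e-06), which macrophages also carry. Of 7 other plasma cell and antibody genes measured 2 rose, namely Sdc1 (5.46, adjusted p = 8.05e-06), a plasma cell marker that epithelial and mesothelial cells carry as well, and Fkbp11 (2.30, adjusted p = 4.32e-06).

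Macrophage, neutrophil, mast cell and endothelial genes moved in different measure. Of 16 macrophage genes 15 rose, led by Clec7a (4.33), Fcgr3a (4.27) and Cd68 (4.03), and of 8 neutrophil genes 4 rose, with S100a9 at 3.17. Of 9 mast cell genes 1 rose, and of 7 endothelial and 6 adipocyte genes 0 were called. MWCNT C replicate 3 and amosite replicate 1, the lowest tumors for 13 and 10 of the 32 lymphocyte genes, were also the lowest for the macrophage list (8.96 and 9.19) and had mesothelial means of 12.4 and 12.2. MWCNT D replicate 3 had a mesothelial mean of 12.35 as well. Its macrophage mean was 11.1, and it was the lowest tumor for 0 of the 32 genes.

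Between tumor types, the question was whether the 3 histological forms differ in lymphocyte genes. Pou2af1 rose in sarcomatoid against epithelioid tumors, by 5.88 ± 1.19 (SE, n = 5 and 3, adjusted p = 0.0443 in limma), and it was the only 1 of the 32 genes called, where 0.0709% of all probe sets were called higher and 0.689% lower. The mean level of Pou2af1 was 9.55 ± 2.61 (SD, n = 5) in sarcomatoid, 4.01 ± 1.44 (SD, n = 3) in biphasic, 3.67 ± 0.42 (SD, n = 3) in epithelioid tumors and 2.77 ± 0.44 (SD, n = 3) in controls. No sarcomatoid tumor overlapped an epithelioid tumor. The call held without MWCNT D replicate 2 (5.28, adjusted p = 0.0477) but not without MWCNT C replicate 1 (adjusted p = 0.0797), MWCNT C replicate 2 (0.091), MWCNT D replicate 1 (0.141), MWCNT B replicate 1 (0.0753) or amosite replicate 1 (0.201), nor with signals below 5 raised to 5 (4.55, adjusted p = 0.124) or in a fit of these 2 groups alone (0.162). Without MWCNT B replicate 2, the lowest sarcomatoid tumor for both genes, Pou2af1 differed by 6.75 (adjusted p = 0.0222) and Prdm1 by 1.66 (adjusted p = 0.0476).

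In sarcomatoid against biphasic tumors 0 of the 32 genes were called in limma, 1 had an unadjusted p below 0.05, and 0.0129% of all probe sets were called higher and 0.235% lower. Pou2af1 differed there by 5.54 (adjusted p = 0.0974), and without MWCNT B replicate 2 by 6.41 (adjusted p = 0.0424). In biphasic against epithelioid tumors 0 genes were called, 0 had an unadjusted p below 0.05, and 0% of all probe sets were called in either direction. The median difference over the 32 genes was 1.29 for sarcomatoid against epithelioid and 1.00 for sarcomatoid against biphasic tumors, and without MWCNT D replicate 2 it was 0.49 and 0.08.

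**Figure D4:**
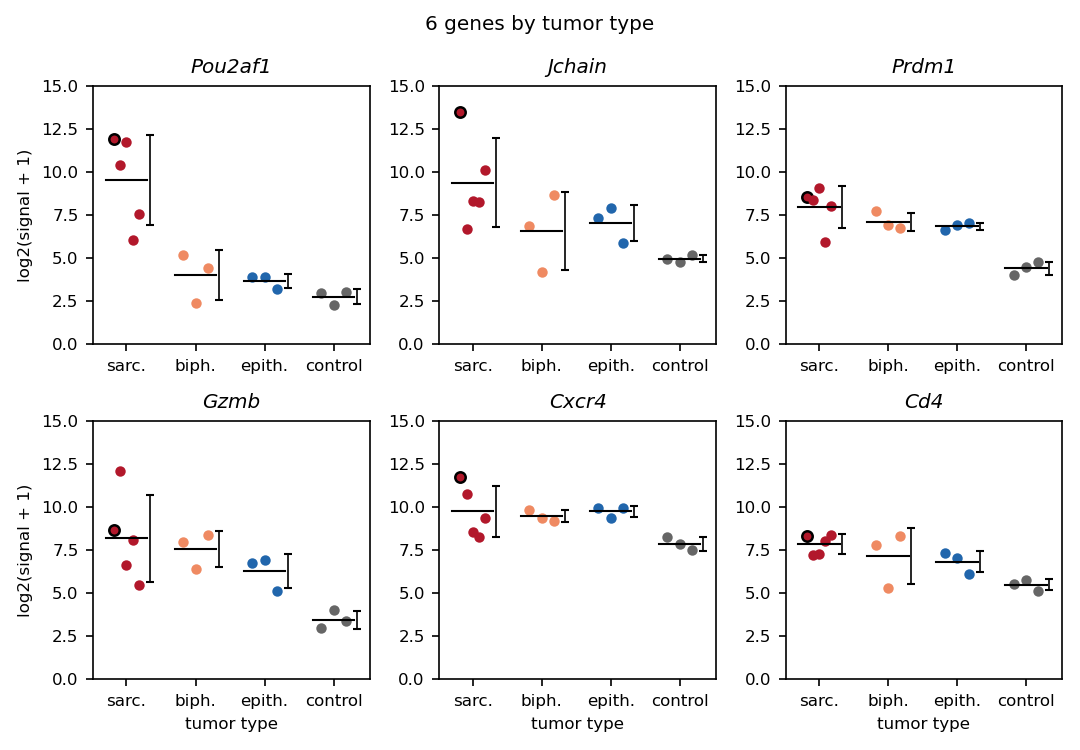
Level of 6 genes, as log2(signal + 1), by tumor type and in control, with 1 point for each array (5 sarcomatoid, 3 biphasic, 3 epithelioid, 3 control), a line at the mean and a bar of 1 SD. Black outlines mark MWCNT D replicate 2. Pou2af1 separates the 5 sarcomatoid tumors (6.06 to 11.92) from the other tumors (2.41 to 5.21), while Jchain, Prdm1, Gzmb, Cxcr4 and Cd4 overlap between tumor types.

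Each tumor type was also compared with the same 3 controls, which these comparisons therefore share. In sarcomatoid tumors 15 of the 32 genes rose and 0 fell (23.3% of all probe sets called higher and 10.9% lower), and these included Pou2af1 (6.77 ± 1.19, adjusted p = 0.000524 in limma), Jchain (4.42 ± 1.32, adjusted p = 0.0141) and Klrd1 (2.92 ± 1.14, adjusted p = 0.049). Without MWCNT D replicate 2, 18 genes rose and 2 fell (24.1% of all probe sets called higher and 11.4% lower), with Pou2af1 at 6.18 (adjusted p = 0.000862) and Jchain at 3.39 (adjusted p = 0.0121), while Klrd1, at 2.01 (adjusted p = 0.0613), was not called. With signals below 5 raised to 5 as well, 14 rose and 0 fell. In biphasic tumors 5 rose and 0 fell (24% and 10.2% of all probe sets), namely Cd8b, Cd28, Gzmb, Nkg7 and Prdm1. The biphasic count was 9 without MWCNT C replicate 3, 3 without amosite replicate 2 and 3 without control replicate 1. In epithelioid tumors 4 rose and 0 fell (24.6% and 9.64%), namely Cd8b, Cd28, Prdm1 and Cxcr4, and the count was 2 without control replicate 1. The order of these counts was not kept in fits of only the groups compared, where 13 genes rose in sarcomatoid tumors, 12 rose and 1 fell in biphasic tumors, and 12 rose and 2 fell in epithelioid tumors. In those fits 7093, 7624 and 8066 of all 31042 probe sets were called higher, in the same order. Those called lower were 3399, 3288 and 3169.

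By inducer, the order of the counts depended on the fit. With all groups in 1 fit MWCNT D, which holds the tumor that stood apart, had the highest count, and in fits of only the groups compared it had the lowest, with 11 genes that rose against 16 for MWCNT B, 12 and 2 that fell for MWCNT C, and 14 and 1 that fell for amosite. In those fits 6666, 7430, 7112 and 7030 of all 31042 probe sets were called higher, in the same order. Those called lower were 3153, 3431, 3383 and 3042. With all groups in 1 fit, in MWCNT D tumors 16 genes rose and 0 fell (22.4% and 10.2% of all probe sets called), with Cd3d at 3.47 ± 1.22 (adjusted p = 0.0388 in limma) and Cd3g at 3.49 ± 1.19 (adjusted p = 0.0342). Without MWCNT D replicate 2, 13 rose and 1 fell (22.7% and 10.4%), with Cd3d at 1.53 (adjusted p = 0.018) and Cd3g at 1.71 (adjusted p = 0.0456), and the gene that fell was Mzb1 (-2.50, adjusted p = 0.0162). With signals below 5 raised to 5 as well, 6 rose and 0 fell, with Mzb1 at -0.26 (adjusted p = 0.0842), and Cd3d (adjusted p = 0.0664) and Cd3g (adjusted p = 0.0676) were not called. The MWCNT D count was 10 without control replicate 1 and 9 without control replicate 3. In MWCNT B tumors 4 genes rose and 0 fell (20.8% and 9.39%), in MWCNT C tumors 6 rose and 0 fell (21.9% and 10.2%), and in amosite tumors 6 rose and 0 fell (22.3% and 9.51%). The MWCNT B count was 0 to 2 without any 1 of its tumors or of the controls, the MWCNT C count was 3 without control replicate 1, and the amosite count was 3 without amosite replicate 2 or control replicate 1.

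With all groups in 1 fit, Cd8b, Cd28 and Prdm1 were called higher in each of the 3 tumor types and under each of the 4 inducers against the shared controls, but not under every alternative. With signals below 5 raised to 5, Cd8b was called in 0 of these 7 groups, Cd28 in 3 and Prdm1 in 6, and with arrays centred on their median Cd8b was called in 7, Cd28 in 3 and Prdm1 in 6. In MWCNT B, leaving out its replicate 1 ended the calls of all 3 genes (adjusted p = 0.0556 for Cd8b, 0.0704 for Cd28 and 0.241 for Prdm1 in limma). For Prdm1 the rises were 3.57 in sarcomatoid, 2.70 in biphasic and 2.43 in epithelioid tumors, and 2.00 for MWCNT B, 3.70 for MWCNT C, 3.20 for MWCNT D and 2.85 for amosite. For Cd28 they ran from 1.38 in epithelioid tumors to 1.76 under MWCNT D, and the fitted values for Cd8b, 3.91 to 5.56, have controls near the bottom of the scale and became 0.19 to 1.84 with signals below 5 raised to 5. The 8 MWCNT tumors against the 3 amosite tumors gave 0 calls among the 32 genes in limma, 0 with an unadjusted p below 0.05, and 0% of all probe sets in either direction, with a median difference of 0.55 over the 32 genes.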

How the data were processed

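Total RNA of 11 tumors and 3 control tissues was hybridized to Affymetrix rat genome arrays, 1 array a sample. The authors normalized the intensity values with PLIER in the Transcriptome Analysis Console and deposited 1 linear signal for each of 31099 probe sets, without detection calls. The 57 control probe sets of the manufacturer were left out, and the other 31042 were taken as log2(signal + 1) with no further scaling. Gene names came from the platform annotation, with 20826 probe sets of 1 symbol (20758 found in RefSeq by gene ID) and 436 of several symbols, which were not named.

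Groups were taken from the sample labels. The labels call the arrays biological replicates, and the p-values measure the spread between them. The authors' methods name an ANOVA with a 2-fold filter. Here 12 comparisons were fitted with limma 3.58.1 (lmFit and eBayes) in R 4.3.3, with Benjamini-Hochberg adjustment over all probe sets, and a call needed an adjusted p below 0.05 and a fold above 2. All groups of a kind shared 1 fit, except that MWCNT against amosite used the 11 tumors. The fit was tested on simulated data. Alternatives were quantile normalization, centring on the array median, a filter at a mean level of 6, a floor at 5, log2(signal + 16), other moderation, a fit limited to the compared groups, the replicate block, an adjusted p below 0.001, another probe set of a gene and leaving out each array. Leaving out both tumors with pancreatic enzyme signal, and the floor or the centring together with leaving out MWCNT D replicate 2, were added after seeing the data.

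The 37 genes and all lists were chosen with earlier results of these data known, so no p is adjusted over a list alone. Named genes are all 32 measured genes, up to 3 genes of each other list with the greatest change among called genes with a mean of at least 8 in the higher group, and the 6 ligands Ccl19, Ccl21, Cxcl13, Cxcl12, Il7 and Il15. Exceptions, named after their values were seen, are Glycam1, Cr2, Fcer2, Bank1, Fcrla, Vpreb3, Iglc1, Madcam1, Iapp and Chrna3. Lists of mesothelial, skeletal muscle, pancreatic, adipocyte, endothelial, macrophage, neutrophil, mast cell, lymph node and pan-leukocyte genes describe the tissue, and Cxcl13, Ccl19, Ccl21, Ltbr and Cr2 stand in more than 1 list. Promoters came from a RefSeq table of GRCr8, a build that the array files do not use. Figures were drawn with matplotlib.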

Additional observations from a re-analysis of the deposited data

Results flagged for a closer look

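For each gene, the gap between the highest or lowest tumor and its nearest neighbor was divided by the range of the group, and values above Dixon's 95% critical value were noted, which chance alone gives in about 1 in 20 groups. Among the 5 sarcomatoid tumors MWCNT D replicate 2 was so placed at the high end for 19 of the 32 genes. These 19 genes share 1 array, so they are not separate observations. The lymphoid signal of this tumor was known when the genes were chosen. The number of genes noted is therefore no test against the rate of 1 in 20. The ratio of gap to range was 0.897 for Cd3d, 0.859 for Cd3e, 0.795 for Cd3g, 0.863 for Cd247, 0.871 for Cd2, 0.829 for Cd5, 0.91 for Zap70, 0.845 for Lat, 0.785 for Il2rb, 0.783 for Gzma, 0.921 for Gzmk, 0.805 for Prf1, 0.733 for Nkg7, 0.735 for Cd79b, 0.88 for Ms4a1, 0.964 for Cd22, 0.785 for Mzb1, 0.926 for Cxcr5 and 0.82 for Ltb.

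Among the 8 MWCNT tumors the same tumor was so placed for 23 of the 32 genes. The ratio was 0.798 for Cd3d, 0.791 for Cd3e, 0.681 for Cd3g, 0.854 for Cd247, 0.889 for Cd2, 0.809 for Cd5, 0.812 for Zap70, 0.775 for Lat, 0.557 for Il7r, 0.615 for Il2rb, 0.623 for Il2rg, 0.774 for Gzma, 0.787 for Gzmk, 0.774 for Prf1, 0.652 for Nkg7, 0.528 for Klrd1, 0.731 for Cd79b, 0.832 for Ms4a1, 0.852 for Cd22, 0.555 for Jchain, 0.664 for Mzb1, 0.798 for Cxcr5 and 0.789 for Ltb. The 23 genes share 1 array, so these are not separate observations. In the same 8 tumors Gzmb in MWCNT C replicate 1 was set apart at the high end (0.6), and Cd4 in MWCNT C replicate 3 at the low end (0.572).

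The difference of Pou2af1 from control differed between sarcomatoid and epithelioid tumors by 5.88 in limma (adjusted p = 0.0443), with the values of each tumor given above.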

How the results depend on the processing

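Between tumors and control, no gene changed its direction in a call. In MWCNT D tumors the mean of Mzb1 was 5.42, against 5.26 in controls. Without MWCNT D replicate 2 Mzb1 fell there, as given above. Of 856 recomputed single-gene values between tumors and control, 788 kept their side of the threshold, 43 lost the call and 25 gained it. The count of genes called, which was 12 for tumors, 15 for sarcomatoid, 5 for biphasic, 4 for epithelioid, 4 for MWCNT B, 6 for MWCNT C, 16 for MWCNT D and 6 for amosite tumors against control, 1 for sarcomatoid against epithelioid and 0 for the other 3 comparisons, moved as follows. At an adjusted p below 0.001 it was 3, 3, 1, 0, 0, 1, 1 and 0 for the first 8 in that order and 0 for sarcomatoid against epithelioid. With signals below 5 raised to 5 it was 2 for biphasic, 1 for epithelioid, 0 for MWCNT B, 1 for MWCNT C, 10 for MWCNT D, 2 for amosite and 0 for sarcomatoid against epithelioid. With arrays centred on their median it was 2 for epithelioid, 1 for MWCNT B, 3 for MWCNT C, 10 for MWCNT D and 2 for amosite, and with quantile normalization 2 for epithelioid, 1 for MWCNT B and 3 for amosite. In fits of only the groups compared it was 13 for sarcomatoid, 13 for biphasic (12 rose and 1 fell), 14 for epithelioid (12 and 2), 16 for MWCNT B, 14 for MWCNT C (12 and 2), 11 for MWCNT D, 15 for amosite (14 and 1) and 0 for sarcomatoid against epithelioid. With the probe set of the greatest change it was 9 for biphasic, 8 for epithelioid, 8 for MWCNT B and 10 for amosite. With log2(signal + 16) it was 1 for epithelioid, 1 for MWCNT B and 0 for sarcomatoid against epithelioid, with the filter at a mean of 6 it was 2 for epithelioid and 0 for sarcomatoid against epithelioid, and without moderation 2 for MWCNT B and 0 for sarcomatoid against epithelioid.

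Leaving out 1 array at a time gave 7 to 18 for tumors, 12 to 20 for sarcomatoid, 3 to 9 for biphasic, 2 to 3 for epithelioid, 0 to 2 for MWCNT B, 3 to 6 for MWCNT C, 9 to 22 for MWCNT D and 3 to 5 for amosite tumors against control, 0 to 2 for sarcomatoid against epithelioid and 0 to 1 for sarcomatoid against biphasic. Where a group was left with 1 tumor, that tumor was assumed to vary like the other groups. After seeing the data, leaving out both tumors with pancreatic enzyme signal gave 19 called genes between tumors and control (17 that rose and 2 that fell). With MWCNT D replicate 2 left out as well, the floor gave 11 and 1 for tumors, 6 for MWCNT D and 0 for sarcomatoid against epithelioid, and the centring gave 10 and 3 for tumors. The cause was not tested.

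Replicate numbers in the labels did not pair the arrays (same-numbered arrays had a median correlation of 0.0151 over 26 pairs, from -0.29 to 0.392), and with the replicate block the count was 2 for MWCNT B and 0 for sarcomatoid against epithelioid, with no other count moved by more than 1.5 times. Signals near the bottom of the scale limit several genes, among them Cd8a, Cd8b, Cd28, Gzmb, Cd79b, Pou2af1 and Mzb1, for which no detection call was used here.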
